A study of Mus musculus with 5 samples.

Results

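The 9 genes described here encode secreted ligands of blood and lymphatic vessel growth: the vascular endothelial growth factor (VEGF) family genes Vegfa, Vegfb, Vegfc, Vegfd and Pgf, the angiopoietins Angpt1 and Angpt2, and the angiopoietin-like genes Angptl2 and Angptl4. They were chosen by name, and all 9 were found among the 15180 protein-coding genes of the deposited table. The cells were fibroblasts sorted from KPC mouse pancreatic tumours as live cells that carried podoplanin (PDPN) and lacked CD45, EpCAM and E-cadherin. KPC is a genetically engineered mouse model of pancreatic cancer, and the labels used here do not say whether these tumours arose in place or were transplanted, nor the sex or age of the mice. Once tumours had formed, mice were given vehicle (3 libraries) or LDE225 (2 libraries) by oral gavage for 14 days. LDE225, also called sonidegib, inhibits Smoothened, which relays Hedgehog signals from the cell surface.

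VEGF-A drives the growth and leakiness of blood vessels through the endothelial receptor encoded by Kdr. Placental growth factor (Pgf) and VEGF-B bind the receptor encoded by Flt1, while VEGF-C and VEGF-D act on lymphatic vessels through the receptor encoded by Flt4. ANGPT1 activates the endothelial receptor encoded by Tek and steadies vessels, and ANGPT2 competes with it. ANGPTL2 is a secreted factor linked to inflammation and ANGPTL4 inhibits lipoprotein lipase; neither binds the Tek receptor. Hedgehog ligands are known to induce VEGF and angiopoietin genes in stromal fibroblasts of other tissues, and the groups here differ in whether Smoothened was inhibited in the tumour-bearing mice.

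For the 4 ligand genes whose vehicle and LDE225 libraries did not overlap, the promoter sequence follows, given as the bases upstream of the RefSeq start site that lie outside every exon GENCODE M21 annotates for the gene. Capitals mark the letters of an SP1 box (GGGCGG) or of a hypoxia-inducible factor (HIF) core (ACGTG or GCGTG), on either strand; neighbouring boxes run together.
Vegfd (GRCm38.p6 chrX:164373272-164373377, plus strand): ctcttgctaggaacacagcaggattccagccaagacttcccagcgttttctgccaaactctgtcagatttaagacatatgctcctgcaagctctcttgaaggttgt
Angptl2 (GRCm38.p6 chr2:33215711-33215960, plus strand): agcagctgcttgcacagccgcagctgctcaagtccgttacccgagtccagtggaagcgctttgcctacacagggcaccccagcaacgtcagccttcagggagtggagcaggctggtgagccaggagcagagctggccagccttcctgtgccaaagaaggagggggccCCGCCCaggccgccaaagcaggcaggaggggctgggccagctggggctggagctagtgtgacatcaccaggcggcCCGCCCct
Vegfb (GRCm38.p6 chr19:6987652-6987901, minus strand): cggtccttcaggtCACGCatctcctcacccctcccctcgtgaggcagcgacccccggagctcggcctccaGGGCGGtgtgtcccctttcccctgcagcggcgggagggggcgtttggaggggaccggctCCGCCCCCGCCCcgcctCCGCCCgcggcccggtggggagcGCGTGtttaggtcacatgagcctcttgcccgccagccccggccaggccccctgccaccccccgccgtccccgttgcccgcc
Vegfa (GRCm38.p6 chr17:46032378-46032627, minus strand): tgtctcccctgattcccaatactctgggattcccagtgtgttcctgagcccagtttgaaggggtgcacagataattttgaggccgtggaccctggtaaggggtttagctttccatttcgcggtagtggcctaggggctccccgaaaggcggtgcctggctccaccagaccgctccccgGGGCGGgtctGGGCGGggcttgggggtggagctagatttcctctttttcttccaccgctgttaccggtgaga

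RefSeq promoter windows were at hand for 6 of the 9 genes; Angpt1, Angpt2 and Angptl4 were not matched. Each window ran from 250 bases before the start site to 50 after it. The Vegfd stretch holds neither marked motif, and the Vegfd window was the only one of these genes with the TATA letters TATAAA, 73 to 68 bases before the RefSeq start and inside a longer GENCODE exon. TATAAA stood in 13.6% of all 32851 promoter windows. The SP1 letters stood in the Angptl2, Vegfb, Vegfa, Vegfc and Pgf windows and in 35.7% of all windows. A HIF core GCGTG was found in the Vegfb and Pgf windows and in an internal Vegfa window, against 32.4% of all windows, and ACGTG in the internal Vegfa window alone, against 19.6%. The GLI motif GACCACCCA was in none of these windows and in 0.253% of all. Its shorter core GACCACC, in 2.80% of all windows, was found once, 35 bases after the Vegfd start.

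The libraries held between 7578822 and 14083280 recovered reads on the deposited genes, both LDE225 libraries above every vehicle library, and 1 read was worth between 0.803 and 1.27 normalised units. Collagen genes and other fibroblast markers were abundant in all 5 libraries, with a summed level between 629056 and 1225611 normalised counts for 11 markers. Other cell types were measured at lower sums: 12 blood endothelial markers summed to between 640.2 and 2576, 10 epithelial markers to between 2749 and 7531, and 6 mesothelial markers to between 3827 and 10976. Col1a1, Col1a2 and Col3a1 made up most of the fibroblast sum, so these sums do not measure purity. Single genes overlapped: in vehicle 1 the mesothelial gene Wt1 (2982) lay above the fibroblast gene Pdgfrb (2540) and below Pdgfra (14070). Fewer cells of a type and less RNA per cell cannot be told apart in such libraries. Gli1, the standard readout of Hedgehog signalling, checked the drug: it was at 315, 463 and 264 with vehicle and at 22.5 and 14.4 with LDE225 (limma log2 fold change -4.16 ± 0.34, SE, adjusted p = 0.0355). Without vehicle 1, vehicle 3, LDE225 1 or LDE225 2 the Gli1 log2 fold change lay between -4.46 and -3.85 and its adjusted p between 0.0580 and 0.529.

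Vegfd was higher with LDE225 and Vegfa lower, so that the leading VEGF transcript differed between the groups. Angptl2 and Vegfb were also higher in both LDE225 libraries than in every vehicle library. The other 5 genes, Vegfc, Pgf, Angpt1, Angpt2 and Angptl4, overlapped between the groups. Thus 4 of 9 ligand genes were separated, where 31.8% of the 13183 genes tested were: 3 with LDE225 higher (background 16.6%) and 1 with LDE225 lower (15.2%). All 9 passed the filter of a mean of at least 10 normalised counts.

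None of the 9 passed limma's test adjusted over all genes, which called 0.0228% of genes higher and 0.00759% lower. At an unadjusted p under 0.05 limma gave 3 of the 9 higher (background 6.92%) and 1 lower (5.71%; 12.6% in either direction). On the recovered reads, edgeR's quasi-likelihood test called 0 of the 9 (background 0.0152% higher and 0.0% lower). DESeq2 on the same reads called Vegfd and Angptl2 higher (background 2.32%) and Vegfa lower (1.78%), 3 of 9 genes where it called 4.1% of all. The median limma log2 fold change was -0.045 over the 9 genes and 0.0030 over all genes tested.

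**Figure D1:**
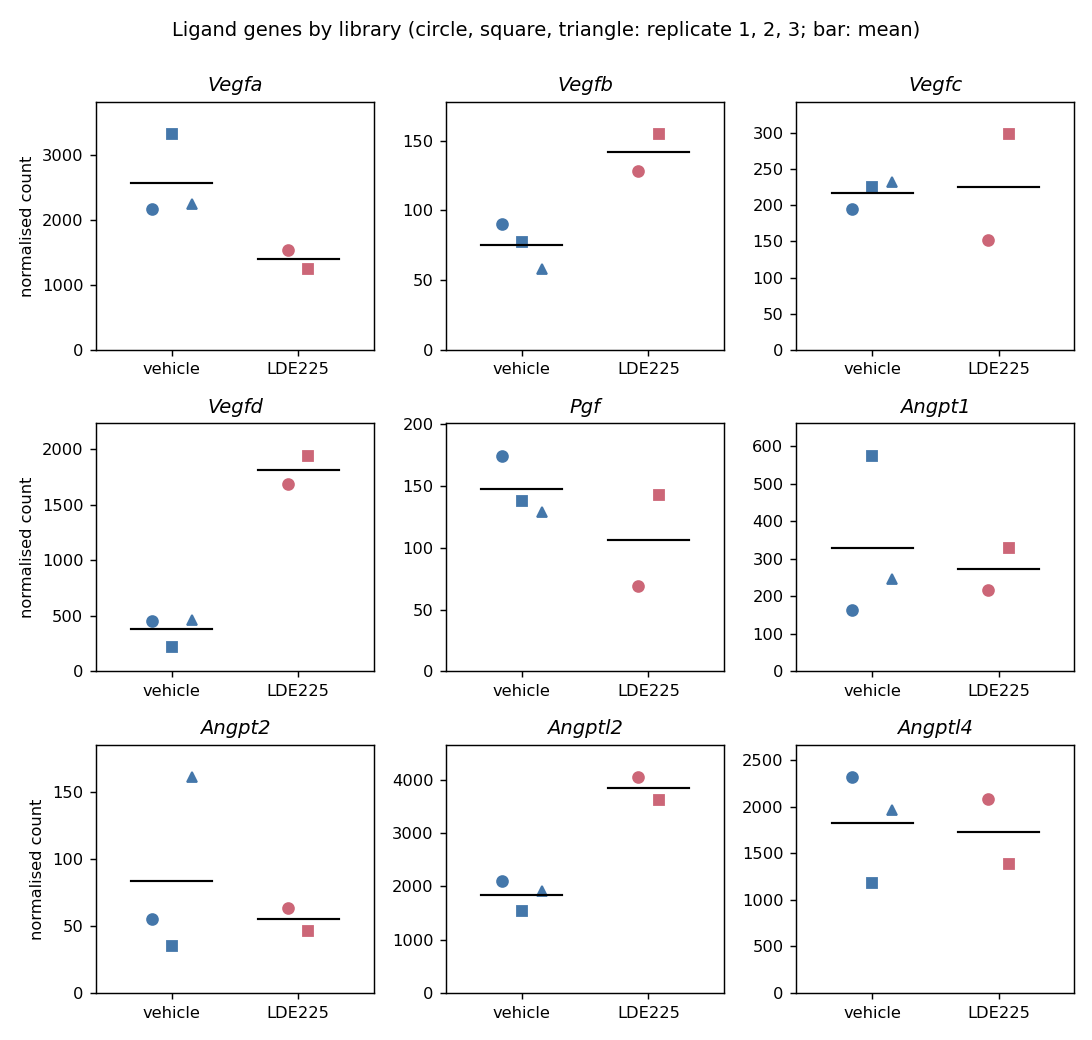
Normalised counts (linear axes from 0) of the 9 ligand genes in the 3 vehicle and 2 LDE225 libraries; each point is a library and the bar is the group mean. Vegfd, Angptl2 and Vegfb lie higher and Vegfa lower in both LDE225 libraries, while the other genes overlap.

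Among the ligands of lymphatic vessels, Vegfd stood at 456, 224 and 459 normalised counts with vehicle and at 1689 and 1942 with LDE225. Both LDE225 libraries were thus far above the vehicle libraries, of which vehicle 2 was lowest. The means were 379.7 ± 135 (SD, n = 3) and 1816 ± 179 (SD, n = 2), a 4.78-fold difference, with a log2 fold change of 2.33 ± 0.33 (SE; 95% interval 1.54 to 3.11; limma adjusted p = 0.0923). Vegfd ranked 35th of 13183 genes by limma's unadjusted p. Without vehicle 2 the log2 fold change was 1.98 and limma called Vegfd (adjusted p = 0.0394). DESeq2 gave 2.26 ± 0.35 (adjusted p = 6.73e-08) and edgeR 2.26 (adjusted p = 0.1002).

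Vegfd (ENSMUSG00000031380.10; GRCm38 chromosome X, 164373378 to 164402650, plus strand) overlaps no other annotated gene. Lymphatic endothelial cells carry PDPN and could pass the sort, and 5 of 6 of their markers were tested, the other, Ccl21a, not being analysed here; limma, edgeR and DESeq2 called 0 of the 5, and 0 had an unadjusted p under 0.05. Prox1, the transcription factor that sets lymphatic identity, was at 45.9, 16.4 and 148 with vehicle and 115 and 66.8 with LDE225. The summed lymphatic markers were 855, 276 and 1565 with vehicle and 741 and 896 with LDE225. The sums of both LDE225 libraries lay within the vehicle range, and of single markers Flt4 in LDE225 1 lay below it. The part of these markers in the Vegfd level was not tested. Of the 11 fibroblast markers, 4 were separated with LDE225 higher (background 16.6%) and 1 lower (15.2%). For these markers limma and edgeR called 0, and DESeq2 called Lum higher (background 2.32%). The matrix proteoglycan genes Lum and Dcn and the dermatopontin gene Dpt were, like Vegfd, highest in both LDE225 libraries and lowest in vehicle 2, as was the sort marker gene Pdpn. Thy1 went the other way, at 2177, 6597 and 3481 with vehicle and 1715 and 1843 with LDE225, and Pdgfrb and Fap were highest in vehicle 2. Dpt was at 853, 213 and 4092 with vehicle and 6924 and 10735 with LDE225, and the part of these markers in the Vegfd difference was not tested.

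Vegfc, the other lymphatic ligand, showed no such pattern. It was at 195, 226 and 232 with vehicle and at 152 and 298 with LDE225, so that the LDE225 libraries lay on either side of the vehicle range. Its log2 fold change was -0.027 ± 0.30 (95% interval -0.75 to 0.70, limma adjusted p = 0.983), which leaves room for a difference in either direction. It was 0.46 without LDE225 1 and -0.51 without LDE225 2. Per kb of exon, the Vegfd to Vegfc ratio was 2.38, 1.01 and 2.01 with vehicle and 11.3 and 6.62 with LDE225, higher in both treated libraries. With 3 against 2 libraries an exact permutation test allows 10 arrangements and cannot go below p = 0.2 two-sided, so ratios and shares are given without a test.

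Among the ligands of blood vessels, Vegfa was at 2165, 3321 and 2244 with vehicle and at 1534 and 1249 with LDE225. Both LDE225 libraries were below all vehicle libraries, of which vehicle 2 was highest. The means of 2577 ± 646 (SD, n = 3) and 1392 ± 202 (SD, n = 2) differed 1.85-fold, with a log2 fold change of -0.87 ± 0.23 (SE; 95% interval -1.41 to -0.33; limma adjusted p = 0.213). DESeq2 gave -0.89 ± 0.27 (adjusted p = 0.0261). Epithelial markers, from cells that also make VEGF-A, summed to 7531, 7034 and 7328 with vehicle and to 6572 and 2749 with LDE225. The keratin genes Krt8, Krt18, Krt19 and Krt7 made up most of each sum. Of these 10 markers limma and edgeR called 0, and DESeq2 called Tff1, Krt8 and Krt19 lower (background 1.78%). Their log2 fold changes were negative for 7 and positive for 3, Epcam, Cldn4 and Lcn2, and Epcam was at 325, 71.5 and 213 with vehicle and 687 and 78.6 with LDE225. Mesothelial markers summed to 10976, 4043 and 5149 with vehicle and to 3965 and 3827 with LDE225. All 6 had a negative log2 fold change (median -1.02). Of these 6, limma and edgeR called 0, and DESeq2 called Upk1b and Msln lower (background 1.78%). Pericyte and smooth muscle markers summed to 3757, 7394 and 6419 with vehicle and to 2601 and 5297 with LDE225. Of 9 tested, 7 had a negative log2 fold change (median -0.83), limma and edgeR called 0 and DESeq2 called Des lower (background 1.78%). Notch3, Mcam, Cspg4 and Ndufa4l2, like Vegfa, were highest in vehicle 2. The markers Rgs5, Kcnj8 and Abcc9 were instead lowest in vehicle 2. Myh11 was highest in vehicle 3 and Des in vehicle 1. The part of these 3 lists in the Vegfa difference was not tested. Without LDE225 2, the library with the lowest epithelial and the lowest mesothelial sum, the Vegfa log2 fold change was -0.72. That value rests on a single LDE225 library and does not separate the part of epithelial or mesothelial cells. Vegfa (ENSMUSG00000023951.17; chromosome 17, 46016993 to 46032369, minus strand) has 13 annotated transcripts, whose isoforms cannot be told apart in counts per gene.

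Vegfb ran the other way. It was at 90.5, 77.2 and 58.2 with vehicle and at 129 and 155 with LDE225, higher in both LDE225 libraries. Its means of 75.3 ± 16.2 (SD, n = 3) and 142 ± 18.5 (SD, n = 2) differed 1.88-fold (log2 fold change 0.92 ± 0.29, SE, limma adjusted p = 0.272), and DESeq2 did not call it (adjusted p = 0.159). These values rest on 50 to 183 recovered reads per library. Pgf was at 175, 138 and 129 with vehicle and at 69.1 and 143 with LDE225, where LDE225 1 was lowest and LDE225 2 lay inside the vehicle range. The log2 fold change of Pgf was -0.55 ± 0.35 (limma adjusted p = 0.581), and it was -0.032 without LDE225 1 and -1.07 without LDE225 2.

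**Figure D2:**
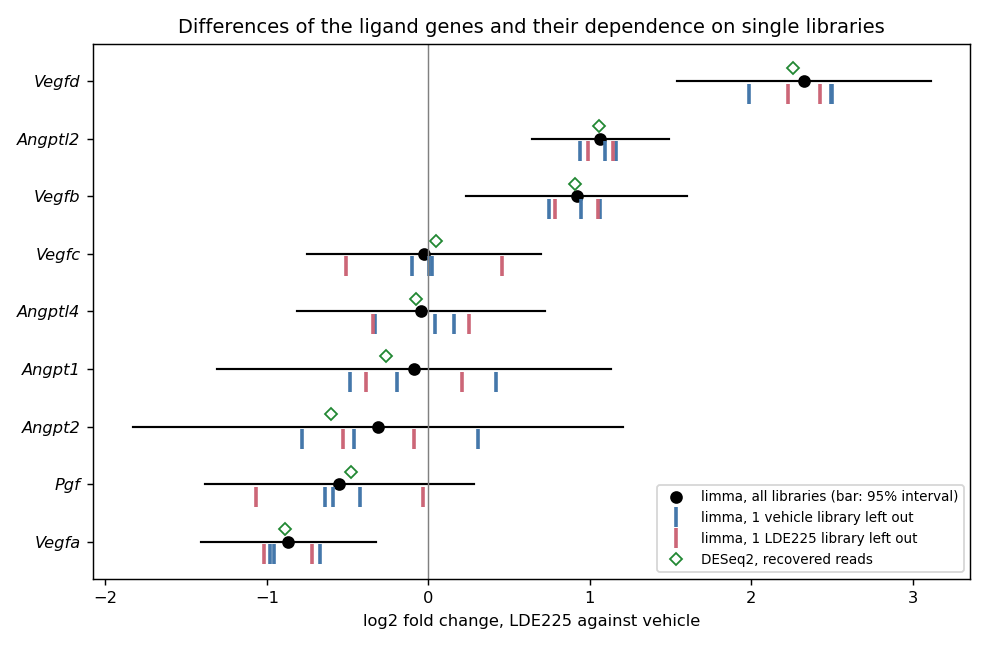
Log2 fold changes of the 9 ligand genes, LDE225 against vehicle, from limma with all libraries (dot, 95% interval), with 1 library left out (ticks) and from DESeq2 (diamonds). Vegfd stays between 1.98 and 2.50, Angptl2 between 0.94 and 1.16 and Vegfa between -1.02 and -0.67, while the ticks of Vegfc, Angptl4, Angpt1 and Angpt2 fall on both sides of 0.

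Levels per kb of exon allow a rough comparison between genes that depends on the length used. The exon union of Angptl2 is 6286 bases and its longest transcript 3559, against 2408 and 2049 for Vegfd. Dividing by the longest transcript would place Angptl2 above Vegfd with LDE225. On the scale of the exon union, Vegfa led with vehicle (601 ± 151, SD, n = 3) and Vegfd led with LDE225 (754 ± 74.2, SD, n = 2). In the vehicle group Vegfa was followed by Angptl4 (513 ± 165) and Angptl2 (294 ± 45.2), with overlapping ranges between Vegfa and Angptl4 and between Angptl4 and Angptl2. Vegfd (158 ± 56.0) came next and lay below Angptl2 in every library. From Vegfd down through Vegfc, Angpt1, Pgf, Vegfb and Angpt2, each neighbour in the order overlapped the next. In the LDE225 group Vegfd was followed by Angptl2 (611 ± 47.4), Angptl4 (489 ± 140) and Vegfa (325 ± 47.1); of these neighbours, Angptl2 and Angptl4 alone overlapped.

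Of the summed level per kb of the 5 VEGF genes, Vegfa made up 56.7%, 73.4% and 58.9% with vehicle and 29.2% and 21.3% with LDE225. Vegfd made up 21.3%, 8.81% and 21.4% with vehicle and 57.2% and 59.1% with LDE225. The Vegfd to Vegfa ratio per kb was below 1 in all vehicle libraries (0.375, 0.120 and 0.364) and above 1 in both LDE225 libraries (1.96 and 2.77). The sum itself was 891, 1056 and 889.7 with vehicle and 1226 and 1366 with LDE225, higher in both LDE225 libraries. The remaining shares were smaller: Vegfc held 5.06% to 10.6%, Vegfb 4.08% to 7.06% and Pgf 1.94% to 6.75% over the 5 libraries.

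**Figure D3:**
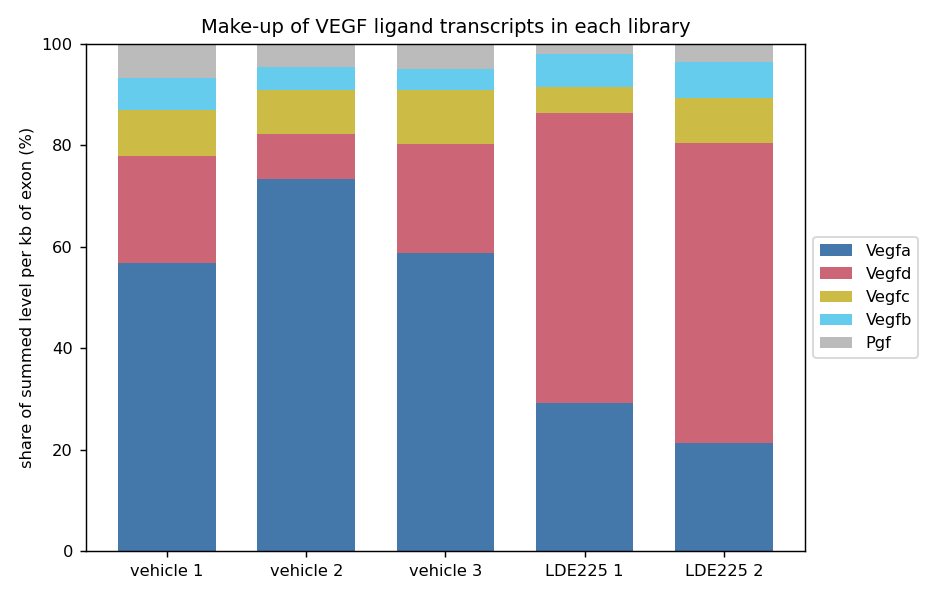
Share (%) of each VEGF family gene in the summed level per kb of exon, 1 bar per library. Vegfa takes between 56.7% and 73.4% of the sum in the vehicle libraries, and Vegfd takes 57.2% and 59.1% in the LDE225 libraries.

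The angiopoietins varied widely within the groups. Angpt1, which encodes the activating ligand of the Tek receptor, was at 163, 575 and 246 with vehicle and at 218 and 329.6 with LDE225, so that the LDE225 libraries lay inside the vehicle range. Its log2 fold change was -0.087 ± 0.51 (95% interval -1.31 to 1.13, limma adjusted p = 0.963), and it was 0.42 without vehicle 2 and 0.21 without LDE225 1. The antisense gene Gm17473 overlaps exons of Angpt1 (chromosome 15, 42424723 to 42676977, minus strand), and since the strand setting of the counting is not given in the sources used here, their reads may not have been told apart. Angpt2, which encodes the competing ligand and is known mainly from endothelial cells, was at 54.8, 34.8 and 161 with vehicle and at 63.5 and 46.5 with LDE225. Vehicle 3 stood apart from the other libraries. Angpt2 lies across from Mcph1 on the other strand, with no overlap of exons. Mcph1 was at 71.4, 132 and 135 with vehicle and 136 and 90.4 with LDE225, above Angpt2 in all libraries but vehicle 3.

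The log2 fold change of Angpt2 was -0.31 ± 0.63 (95% interval -1.83 to 1.21, limma adjusted p = 0.884), and it was 0.31 without vehicle 3. Summed, the blood endothelial markers were also highest in vehicle 3. The sum was 2576 there, 1834 and 640.2 in vehicle 1 and 2, and 1077 and 1646 in LDE225 1 and 2. Of single markers, Kdr (632, 334 and 452 with vehicle) and Esam (315, 86.9 and 196) were highest in vehicle 1. The part of these markers in the Angpt2 level was not tested. Emcn, a marker of venous and capillary endothelium, was low throughout, at 3.82, 26.1 and 32.6 with vehicle and 0 and 17.7 with LDE225. Of these 12 markers 0 passed limma's adjusted test and 0 an unadjusted p under 0.05, and edgeR and DESeq2 called 0. The Angpt2 to Angpt1 ratio per kb was 0.474, 0.0853 and 0.923 with vehicle and 0.411 and 0.199 with LDE225. The ratio stayed below 1 in every library and overlapped between the groups.

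Of the angiopoietin-like genes, Angptl2 was at 2096, 1537 and 1905 with vehicle and at 4051 and 3630.2 with LDE225. Both LDE225 libraries were above every vehicle library, and the spread within each group was narrow. Its means of 1846 ± 284 (SD, n = 3) and 3841 ± 298 (SD, n = 2) differed 2.08-fold, with a log2 fold change of 1.07 ± 0.18 (SE; 95% interval 0.64 to 1.49; limma adjusted p = 0.124). DESeq2 gave 1.06 ± 0.21 (adjusted p = 9.18e-05) and edgeR 1.06 (adjusted p = 0.133). Angptl2 (ENSMUSG00000004105.8; chromosome 2, 33216069 to 33247717, plus strand) lies across from Ralgps1 on the other strand, with no overlap of exons. Ralgps1 was at 125, 29.9 and 40.8 with vehicle and 87.6 and 81.1 with LDE225, far below Angptl2.

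Angptl4 was at 2314, 1174 and 1966 with vehicle and at 2080 and 1380.2 with LDE225. The groups overlapped, with vehicle 2 lowest and vehicle 1 highest. Its log2 fold change was -0.045 ± 0.32 (95% interval -0.81 to 0.72, limma adjusted p = 0.971), and it turned positive without vehicle 1 (0.16), vehicle 3 (0.040) or LDE225 2 (0.25). Lpl, which encodes the lipase that ANGPTL4 inhibits, was at 1506, 6166 and 1571 with vehicle and at 2385 and 2678 with LDE225, highest in vehicle 2 (limma adjusted p = 0.985).

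Within the vehicle group, vehicle 2 was the lowest library for Vegfd, Angptl2, Angptl4 and Angpt2 and the highest for Vegfa and Angpt1. Over the 5 libraries, Pearson's r of log2 values was 0.98 between Vegfd and Angptl2, -0.98 between Vegfd and Vegfa and -0.97 between Angpt1 and Angptl4. These values describe 5 libraries that share the group difference and differ in depth. Each ligand gene was compared with 10938 other genes with a mean of at least 50. Those most like Vegfd were Mgme1, Atrnl1 and Prex1 (r of 0.999 each), and 303 of the 10938 genes had an r over 0.95 with Vegfd. Those most like Angptl2 were Rnf150, Msl3 and Zfp36l1 (191 genes over 0.95), and those most like Vegfa were Lig3, Armcx2 and Pold2 (156 genes over 0.95).

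No receptor gene of these ligands was called, and wide intervals leave room for differences. Of 7 receptor and co-receptor genes, 0 passed limma's adjusted test or an unadjusted p under 0.05, edgeR and DESeq2 called 0, and all 7 overlapped between groups (median log2 fold change 0.15). Flt4, the VEGF-C and VEGF-D receptor gene, was at 466, 188 and 556 with vehicle and 183 and 259 with LDE225 (limma adjusted p = 0.572). Kdr was at 632, 334 and 452 with vehicle and at 519 and 409.9 with LDE225, inside the vehicle range. Nrp2, a co-receptor of VEGF-C and VEGF-D, was at 461, 226 and 618 with vehicle and 594 and 829 with LDE225 (adjusted p = 0.492).

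Of 13 measured genes that process or bind VEGF ligands, 0 passed limma's adjusted test. At an unadjusted p under 0.05 limma gave 3 higher (background 6.92%) and 0 lower (5.71%). On the recovered reads edgeR called 0 and DESeq2 called 1 higher (background 2.32%). That gene was Adamts2, a procollagen protease related to the VEGF-C protease encoded by Adamts3 (8206 ± 2061, SD, n = 3, and 17069 ± 5493, SD, n = 2; DESeq2 adjusted p = 0.0217). Ccbe1, whose product aids VEGF-C processing, was at 686, 294 and 239.9 with vehicle and 652 and 965 with LDE225, overlapping (limma adjusted p = 0.375). Adamts3 itself was at 733, 364 and 549 with vehicle and at 417 and 423 with LDE225. Pcsk6, a proprotein convertase gene, was higher in both LDE225 libraries (461 and 876) than with vehicle (138, 121 and 409).

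Among 4 other angiopoietin family genes tested, limma and edgeR called 0. In limma 1 was lower at an unadjusted p under 0.05 (background 5.71%), and DESeq2 called the same gene lower (1.78%). This was Angpt4, a further ligand of the Tek receptor, at 161, 417 and 209.6 with vehicle and 64.3 and 102 with LDE225 (log2 fold change -1.56 ± 0.43, DESeq2 adjusted p = 0.0242, limma adjusted p = 0.231). Both LDE225 libraries were below every vehicle library. Angptl7 was at 684, 939 and 147 with vehicle and 219 and 102 with LDE225, overlapping. Among 8 tested partners of the ANGPTL proteins, limma and edgeR called 0, DESeq2 called 1 lower (background 1.78%), and 2 were separated with LDE225 lower (15.2%). The gene DESeq2 called, the integrin gene Itgb3, was lower in both LDE225 libraries (985, 1282 and 780.3 with vehicle, 543 and 479 with LDE225; DESeq2 adjusted p = 0.0131, limma adjusted p = 0.186).

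HIF factors induce Vegfa and Angptl4 when oxygen is low. Of 18 HIF target genes other than these, limma called 0, with 1 higher (background 6.92%) and 9 lower (5.71%) at an unadjusted p under 0.05. The same numbers, 1 and 9, were separated between the groups, where 16.6% and 15.2% of all genes were, and the list median was -0.58. DESeq2 called 3 lower (background 1.78%) and 1 higher (2.32%), and edgeR called 0. Lower were Pgk1, a glycolytic kinase gene (log2 fold change -1.24), the lactate transporter gene Slc16a3 (-1.25) and the oxidase gene Ero1l (-0.98), with DESeq2 adjusted p between 9.90e-04 and 0.0407. Higher was the vasodilator gene Adm (1.65). Vegfa was also lower and Angptl4 overlapped between the groups. The part of HIF in these levels was not tested.

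Among 9 HIF pathway genes, limma and edgeR called 0 and DESeq2 called Epas1 higher (background 2.32%) and Egln3 lower (1.78%). At an unadjusted p under 0.05 limma gave 2 higher (background 6.92%) and 1 lower (5.71%). Epas1, which encodes HIF-2 alpha, was at 901, 1168 and 1374 with vehicle and 3592 and 2587 with LDE225 (log2 fold change 1.43 ± 0.23, limma adjusted p = 0.116, DESeq2 adjusted p = 2.04e-05). Hif1a was also higher in both LDE225 libraries, at 4321 and 3709 against 2045, 2775 and 3536 (limma adjusted p = 0.418). Egln3, an oxygen sensor gene that HIF itself induces, was at 1034, 1260.1 and 819.9 with vehicle and 358 and 491 with LDE225.

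**Figure D4:**
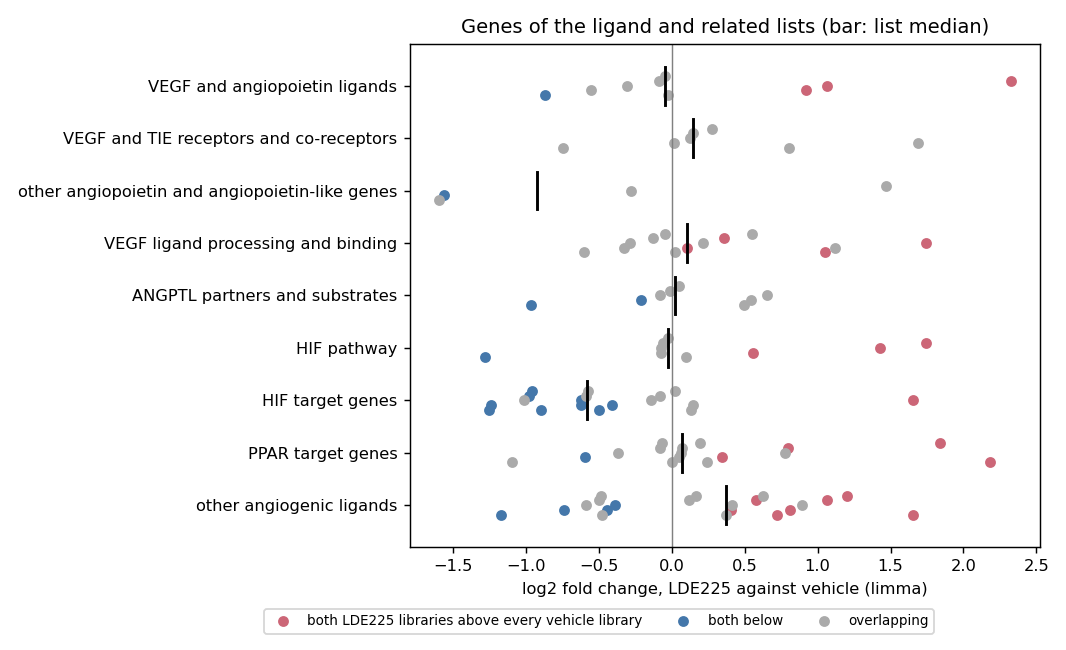
Limma log2 fold changes of the ligand genes and of the genes in 8 related lists; each point is a gene, coloured by whether both LDE225 libraries lie above or below every vehicle library, and the bar is the list median. The HIF target genes have a median of -0.58 and the receptor genes one of 0.15 with no separated gene.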

How the data were processed

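RNA of PDPN+ CD45- EpCAM- E-cadherin- cells from KPC tumours was depleted of ribosomal RNA and made into directional paired-end libraries, per the labels' protocols and the series' design text. The authors deposited a signal per gene, which behaves as counts divided by a size factor and is not scaled for length. The submitters' processing notes name STAR 2.7.3, RSEM 1.2.29, DESeq2 1.22.2 and GRCm38 with no roles; annotation release, gene filter and strand setting: not given in the sources used here. Nothing in the labels ties a library to a single mouse, so p-values measure only the spread between these libraries, which may be technical. All pairs of libraries differed beyond sampling noise (chi-square over its degrees of freedom from 22.8 to 125).

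All values (100%) were whole multiples of 1 read within 0.001, which gave the recovered reads. limma 3.58.1 in R 4.3.3 was fitted to log2(value + 1) of all 13183 genes whose mean reached 10 (mean trend, two-sided, Benjamini-Hochberg over all genes tested, threshold 0.05); the log2(value + 1) scale understates changes of low genes. edgeR 4.0.16 and DESeq2 1.42.0 on recovered reads were alternatives, and all were tested on simulated data. On the recovered reads edgeR called 2 genes and DESeq2 530. Levels per kb use the union of exons in GENCODE M21 (GRCm38). Another 3 columns without a header, with leftover entries for 9 genes, were not used.

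The ligand genes, lists and tests were chosen with earlier results of these data known. Named were all ligand genes, in each list the genes past the threshold or up to 4 with the smallest p, and the 3 genes most correlated with a ligand gene over the libraries; Kdr, Adamts3, Lpl and the marker genes named with values were named besides, after their values were seen. Not all genes of that rule are spelled out. Some results are not reported here.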

Additional observations from a re-analysis of the deposited data

How the results depend on the processing

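Vegfa, Vegfb, Vegfd, Pgf and Angptl2 kept their direction under all 15 alternatives. Vegfd had an unadjusted p under 0.05 in 15 of them, Angptl2 in 15, Vegfa in 14 and Vegfb in 13. Over these alternatives the adjusted p ranged from 6.73e-08 to 0.642 for Vegfd, from 9.18e-05 to 0.692 for Angptl2, and from 0.0261 to 0.896 for Vegfa. The call of Vegfd appeared with DESeq2 and without vehicle 2, those of Angptl2 and Vegfa with DESeq2. Leaving out 1 library moved the log2 fold change of Vegfb between 0.75 and 1.06 and that of Pgf between -1.07 and -0.032. The kept directions were in part fixed in advance. Dropping limma's mean trend or changing the filter on the mean leaves the log2 fold change as it was. Where the groups do not overlap, leaving out 1 library cannot turn the sign. That holds for Vegfa, Vegfb, Vegfd and Angptl2, but not for Pgf.

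The sign turned, with no call, for Vegfc with DESeq2 (0.047), edgeR (0.050), the replicate block (0.020) or 1 library left out (from -0.51 to 0.46), for Angptl4 with the block (0.040) or 1 library left out (from -0.34 to 0.25), for Angpt2 with the block (0.31) or 1 library left out (from -0.78 to 0.31), and for Angpt1 with 1 library left out (from -0.49 to 0.42). Vehicle 3 has no LDE225 library of its number, so the block gives the same log2 fold changes as leaving out vehicle 3. A sign turned in both is therefore the same turn and not a separate one. What caused the turned signs was not tested. Leaving out an LDE225 library assumes that the lone sample varies like the vehicle group.

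Of all genes, limma called 3 higher and 1 lower. The counts were 300 and 230 with DESeq2, 16 and 5 with the replicate block, 2 and 0 with edgeR, 4 and 2 after rescaling to the same total, and 0 lower without the mean trend; with 1 library left out they ran from 0 to 6 higher and from 0 to 4 lower, namely 6 and 1 when vehicle 2 was left out, 0 and 4 for LDE225 2, 1 and 0 for vehicle 3, and 0 for either vehicle 1 or LDE225 1. Rescaling to the same total moved the median of all genes by -0.13, and Vegfd was then at 2.19. The replicate numbers are known as a label only, so the block was an alternative and not part of the main fit. Deviations of same-numbered libraries correlated at 0.13 and -0.017. With 2 LDE225 libraries the LDE225 deviations are exact opposites, so these values cannot decide whether the numbers pair libraries. With 1 library left out, the mean share of Vegfa ran from 57.8% to 66.1% with vehicle and from 21.3% to 29.2% with LDE225, and that of Vegfd from 15.0% to 21.3% and from 57.2% to 59.1% (chosen after seeing the data). Among the ligand genes, the lowest read counts were those of Angpt2, with 36 to 138 reads per library, and Vegfb, with 50 to 183.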

Other observations

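Other angiogenic ligands outside the VEGF and angiopoietin families went both ways. Of 21 genes, limma and edgeR called 0 and DESeq2 called 1 higher (background 2.32%). At an unadjusted p under 0.05 limma gave 4 higher and 3 lower (6.92% and 5.71% of all genes). The median log2 fold change was 0.37. Pdgfd, a platelet-derived growth factor gene, was at 169, 85.0 and 146 with vehicle and 328 and 268 with LDE225. Efnb2, which encodes an arterial guidance ligand, was at 877, 887 and 816 with vehicle and 632 and 420.1 with LDE225. The gene DESeq2 called was Adm, which is also among the HIF targets, at 163, 161 and 236 with vehicle and 543 and 622 with LDE225.

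Target genes of the PPAR receptors, a second known input to Angptl4, had 4 of 16 genes separated with LDE225 higher and 1 lower, against 16.6% and 15.2% of all genes. Of these 16, limma, edgeR and DESeq2 called 0. At an unadjusted p under 0.05 limma gave 0 higher (background 6.92%) and 1 lower (5.71%), with a median log2 fold change of 0.067.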
